A study of Mus musculus with 12 samples.

Results

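The genes that make and recycle the building blocks of RNA and DNA were followed in 3 mouse lines with and without SX-682, an inhibitor of the chemokine receptors CXCR1 and CXCR2. They are 33 genes of purine, pyrimidine and deoxynucleotide synthesis, taken by gene symbol from the 34513 genes of the count table. MelanA is labelled nontumorigenic and is known as a line of pigment cell origin, and B16F0 and B16F10 are melanoma lines of 1 origin, B16F10 being a subline selected for lung colonies. Each line was sequenced from untreated cultures and from cultures given SX-682. That makes 6 groups of 2 libraries. The dose and duration of SX-682 in these cultures are not given in the sources used here, and the labels do not say whether the 2 libraries of a group came from separate cultures, so p-values measure only the spread between these libraries. Of 8 melanocytic markers, Sox10 was at 655 to 753 CPM in the MelanA libraries. Dct was at 268 to 358 CPM there, Mlana at 99.7 to 119, Tyrp1 at 105 to 143 and Mitf at 78.0 to 103. Pmel, Tyr and Mc1r were at no more than 8.70, 0.89 and 3.57 CPM in MelanA. The B16 libraries held at least 3899, 17.6 and 123 CPM of these last 3. The identity of the MelanA cultures was not tested beyond these markers, so a comparison with MelanA is one with the libraries labelled so. Library totals were 48876982 to 85322092 counts. Each of the 33 genes passed edgeR's expression filter, which kept 18338 genes, and apart from Nme2 each had at least 755 counts in every library. Levels are given as CPM, counts relative to the TMM-scaled library size. Changes are log2 fold changes with their standard errors from edgeR's quasi-likelihood test, and a gene is said to have risen or fallen where the Benjamini-Hochberg adjusted p over all genes tested was under 0.05. The shares of all genes tested that are given beside counts of the 33 genes were not matched for read count. The part of read count in how often genes passed the test was not tested. Values of bulk RNA do not separate a change in the makeup of a culture from a change within each cell.

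Purine nucleotides are built on an activated ribose, PRPP, which the Prps enzymes make. Ppat commits PRPP to the purine path, and Gart, Pfas, Paics, Adsl and Atic assemble the ring up to IMP, which Adss leads to AMP and Impdh1, Impdh2 and Gmps lead to GMP. Pyrimidines start with the multienzyme protein Cad and pass through Dhodh and Umps to UMP, and the Ctps enzymes make CTP. Ribonucleotide reductase turns ribonucleotides into deoxynucleotides. Its large subunit Rrm1 pairs with Rrm2, whose amount rises in S phase, or with Rrm2b, the p53-inducible subunit that also serves cells outside S phase and mitochondrial DNA. Tyms makes thymidylate, Dut removes dUTP, Dck and Tk1 salvage deoxynucleosides in the cytosol, Tk2 does so in mitochondria, and Samhd1 breaks dNTPs down. Dividing cells raise some of these enzymes, Rrm2 and Tk1 among them, as they enter S phase.

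With SX-682, more of the 33 genes fell than rose in each line, and the gene with the largest fall was a deoxynucleotide gene in each, Rrm2 in MelanA and B16F10 and Tyms in B16F0. In MelanA 17 genes fell and 6 rose, where 24.7% and 23.4% of all genes tested did. In B16F0 17 genes fell and 6 rose, against 25% and 25.1% of all genes. In B16F10 25 genes fell and 4 rose, against 25.3% and 25.5%. The median change of the 33 genes was -0.13 in MelanA, -0.13 in B16F0 and -0.29 in B16F10, beside a median of 0.00 over all genes tested in each line. Counting only changes of at least 0.5 on the log2 scale, 6 genes fell and 1 rose in MelanA (8% and 8.3% of all genes), 7 fell and 0 rose in B16F0 (9.22% and 10.2%), and 10 fell and 2 rose in B16F10 (10.1% and 11.4%).

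In all 3 lines 13 genes fell, where 11.7% of all genes did: Ppat, Pfas, Umps, Hprt, Rrm1, Rrm2, Tyms, Dut, Dctpp1, Tk1, Dck, Samhd1 and Nme1. Of these, Rrm2, Dut, Dck and Tyms fell by at least 0.5 in every line, as 1.97% of all genes did. Of the 33 genes, 2 rose in all 3 lines, Rrm2b and Tk2, where 11.3% of all genes rose, and 0 rose by at least 0.5 in every line (2.6% of all genes). 6 genes, Gart, Paics, Atic, Cad, Aprt and Mthfd1, rose in some lines and fell in others, a pattern of 9.59% of all genes. The remaining 12 genes passed the test in fewer lines and in 1 direction, except Nme2, which passed it in none (29.4% of all genes passed it in none). Summed over the 33 genes, the mean level went from 2901 to 2479 CPM in MelanA, in B16F0 from 3669.7 to 3267, and in B16F10 from 3647 to 2728.

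**Figure D1:**
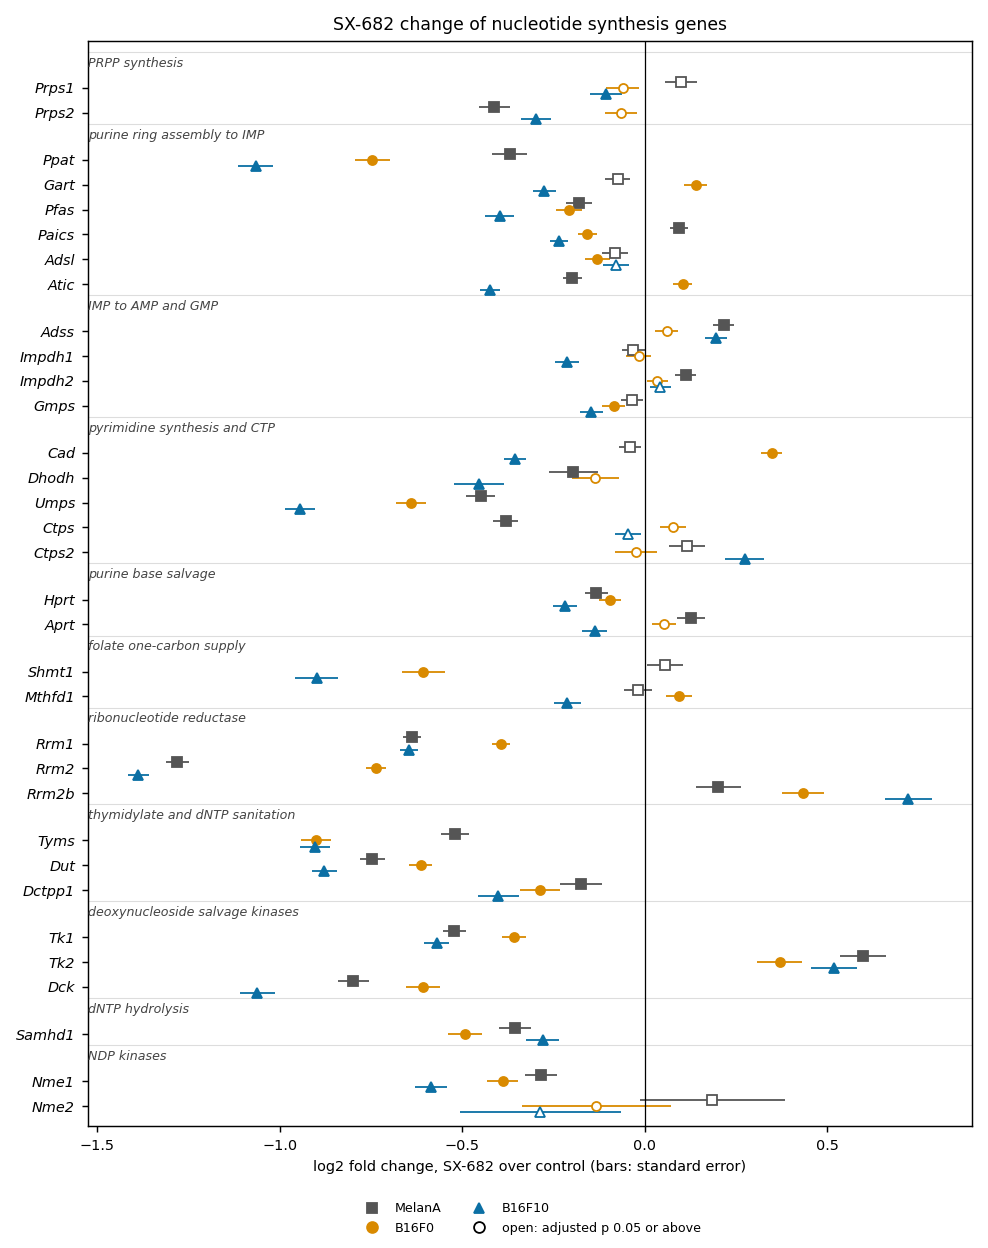
Log2 fold change of SX-682 over control for the 33 genes, grouped by role, with squares for MelanA, circles for B16F0, triangles for B16F10, bars for the standard error and open symbols where the adjusted p was 0.05 or above. Rrm2, Tyms, Dut and Dck lie to the left of -0.5 in every line, Rrm2b and Tk2 lie to the right of 0, and Cad runs from -0.36 in B16F10 to 0.35 in B16F0.

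Ribonucleotide reductase held the largest fall of the 33 genes in MelanA and B16F10 and, in its alternative small subunit, a rise. Rrm2, the S phase small subunit at chr12:24708241-24714146 (+ strand, GRCm38), was at 119 and 119.6 CPM in the untreated MelanA libraries and at 47.7 and 50.6 with SX-682. In B16F0 Rrm2 was at 344 and 352 CPM untreated and at 213 and 205 with SX-682. In B16F10 it was at 419 and 414 CPM untreated and at 156 and 163 treated. Both treated libraries lay below both controls in each line, with log2 changes of -1.28 ± 0.032 (adjusted p = 1.6e-23), -0.74 ± 0.028 (adjusted p = 3.7e-19) and -1.39 ± 0.029 (adjusted p = 8.7e-26). The fall was smaller in B16F0 than in B16F10, by 0.65 (adjusted p = 2e-13).

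Rrm1, the catalytic subunit, fell by less than Rrm2. It went from 388 and 385 to 251 and 246 CPM in MelanA, and from 304 and 307 to 230.0 and 235 in B16F0. In B16F10 it went from 437 and 448 to 284 and 282 CPM. These are changes of -0.64 ± 0.024, -0.39 ± 0.024 and -0.65 ± 0.024, with adjusted p of 2.2e-19, 2e-14 and 9.3e-20. Per kilobase of exon, Rrm2 stood at 1.22 and 1.23 times the level of Rrm1 in the untreated MelanA libraries and at 0.756 and 0.817 times with SX-682. The same ratio went in B16F0 from 4.5 and 4.57 to 3.68 and 3.47, and in B16F10 from 3.81 and 3.68 to 2.18 and 2.3, lower in both treated libraries of every line.

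Rrm2b rose in each line. It was at 22.1 and 20.6 CPM in untreated MelanA and at 23.98 and 25.1 with SX-682. In B16F0 Rrm2b went from 39.2 and 36.9 to 54.5 and 48.05 CPM, and in B16F10 from 18.4 and 20.7 to 31.8 and 32.7. The changes were 0.20 ± 0.063 (adjusted p = 0.0082), 0.43 ± 0.058 (adjusted p = 2.5e-07) and 0.72 ± 0.065 (adjusted p = 8.4e-11), and they differed among the lines (F-test, adjusted p = 8.1e-05). The call in MelanA was lost without control replicate 2 (log2 change 0.16) or SX-682 replicate 2 (0.18). Per kilobase, Rrm2b stood at 0.056 and 0.052 times the level of Rrm2 in untreated MelanA and at 0.152 and 0.150 times after treatment. The ratio went in B16F0 from 0.035 and 0.032 to 0.078 and 0.071, and in B16F10 from 0.013 and 0.015 to 0.062 and 0.061. Rrm2 stayed the more abundant small subunit transcript in every library. Over 8.04% of its exon bases Rrm2b is overlapped on the other strand by the antisense gene Gm49085, which had 165 counts in the 12 libraries together, beside 24969 for Rrm2b.

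Sequence before the transcription start is shown for genes that moved in all 3 lines, so that those that fell can be read beside Tk2, which rose. The RefSeq promoter table (GRCm38.p6) matched 30 of the 33 genes, and Pfas, Dhodh and Rrm2b were not matched. In the 250 bases before the start, both strands were searched for the letters CCAAT of the CCAAT box, CACGTG of the E-box, and the E2F-type letters TTTCCCGC, TTTCGCGC, TTTGCCGC and TTTGGCGC; a narrower search with TTTCGCGC and TTTGGCGC alone had matched none of the 30. The motif in question is in capitals, and stretches are written 5′ to 3′ on the strand of the gene.
Rrm1, the 120 bases before the start, chr7:102441575-102441694, + strand: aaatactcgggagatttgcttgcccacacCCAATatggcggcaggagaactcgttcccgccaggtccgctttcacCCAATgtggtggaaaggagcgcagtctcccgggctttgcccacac
Tyms, the 120 bases before the start, chr5:30073626-30073745, - strand: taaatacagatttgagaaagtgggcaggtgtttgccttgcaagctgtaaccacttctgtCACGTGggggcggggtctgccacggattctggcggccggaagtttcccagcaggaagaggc
Tk2, the 120 bases before the start, chr8:104248559-104248678, - strand: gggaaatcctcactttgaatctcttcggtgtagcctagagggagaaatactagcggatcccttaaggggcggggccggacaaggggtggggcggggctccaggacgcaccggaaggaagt
Rrm2, around its CCAAT letters 50 bases before the start, chr12:24708194-24708218, + strand: tcagcggcgtCCAATgggaggcgag
Ppat, around its first E2F-type match 211 bases before the start, chr5:76951772-76951799, - strand: agcagaccgcGCGGGAAAaaagggcagt
Ppat, around the second match 158 bases before the start, chr5:76951719-76951746, - strand: ggatcagaggGCGGGAAAgggaggtgca

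CCAAT letters were in 10 of the 30 genes, beside 33.8% of all promoters in the table and 40.4% of the tested genes counted in the same way, by any of their promoters. CACGTG was in 5 of them, Paics, Atic, Impdh2, Tyms and Nme1, beside 6.02% of all promoters and 9.42% of tested genes. The E2F-type letters were in 1 gene, Ppat, beside 1.86% of all promoters and 3.56% of tested genes, and both of its matches lie in exon sequence of the neighbouring gene Paics. Rrm1 held CCAAT at 91 and 45 bases before its start, and the Tk2 window held none of the 3 motifs. Umps, Hprt, Dut, Tk1, Dck and Samhd1, which fell in every line, held none of the 3 either. These are matches of letters and not measured sites.

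Transcripts of the genes for thymidylate synthesis and for the removal of dUTP also fell in every line. Tyms, the thymidylate synthase gene, was at 75.3 and 76.01 CPM in untreated MelanA and at 52.97 and 52.6 with SX-682. In B16F0 Tyms went from 60.6 and 61.1 to 32.2 and 32.99 CPM, and in B16F10 from 63.2 and 60.6 to 33.2 and 33.1. Treated and untreated libraries did not overlap in any line. The log2 changes were -0.52 ± 0.037, -0.90 ± 0.041 and -0.90 ± 0.041 (adjusted p = 7e-13, 1.9e-17 and 1.3e-17), and the mean fall of the B16 lines exceeded that of MelanA by 0.38 (adjusted p = 1.1e-07). The B16 lines differed from each other by -0.00 ± 0.058.

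Dut, which hydrolyses dUTP so that uracil is not built into DNA, was at 89.98 and 90.2 CPM in untreated MelanA and at 52.9 and 54.6 after SX-682. In B16F0 Dut went from 156 and 156 to 99.96 and 104 CPM, and in B16F10 from 94.5 and 96.3 to 51.4 and 52.5. Its level in treated B16F0, about 100 CPM, was still above that of untreated MelanA and B16F10. The changes were -0.75 ± 0.033, -0.61 ± 0.032 and -0.88 ± 0.034 (adjusted p = 1.3e-17, 3.7e-16 and 4.1e-19). Dctpp1, which clears modified and surplus dCTP, fell, with log2 changes of -0.17, -0.29 and -0.40 in MelanA, B16F0 and B16F10. The Dctpp1 call in MelanA was lost without control replicate 2 (-0.14) or SX-682 replicate 2 (-0.10).

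The salvage kinases of the cytosol and the mitochondria moved in opposite directions. Dck, the deoxycytidine kinase of the cytosol and nucleus, was at 61.002 and 60.6 CPM in untreated MelanA and at 35.3 and 34.7 with SX-682. In B16F0 Dck went from 44.6 and 46.8 to 29.6 and 30.4 CPM, and in B16F10 from 49.6 and 52.02 to 24.3 and 24.4. The log2 changes were -0.80 ± 0.043, -0.61 ± 0.046 and -1.06 ± 0.047 (adjusted p = 1.2e-15, 2.6e-12 and 7.8e-18), the largest being that of B16F10. Tk1, the S phase thymidine kinase, fell, with log2 changes of -0.52, -0.36 and -0.57 (adjusted p = 1.7e-14, 8.3e-11 and 5.6e-15). Tk2, the thymidine kinase of mitochondria, was at 14.98 and 15.2 CPM in untreated MelanA and at 22.3 and 23.3 with SX-682. In B16F0 Tk2 went from 22.3 and 19.7 to 26.5 and 27.96 CPM, and in B16F10 from 18.9 and 18.9 to 27.4 and 26.8. Its rises of 0.60 ± 0.063, 0.37 ± 0.063 and 0.52 ± 0.064 (adjusted p = 2.6e-09, 1.1e-05 and 4.3e-08) were not shown to differ among the lines (F-test, adjusted p = 0.09). Per kilobase, Tk2 stood at 0.136 and 0.142 times the level of Tk1 in untreated MelanA and at 0.295 and 0.309 times with SX-682, and the ratio was also higher in both treated libraries of each B16 line. Samhd1, which breaks dNTPs down, fell as well, with log2 changes of -0.36, -0.49 and -0.28 (adjusted p = 7.6e-08, 2.7e-10 and 6e-06).

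**Figure D2:**
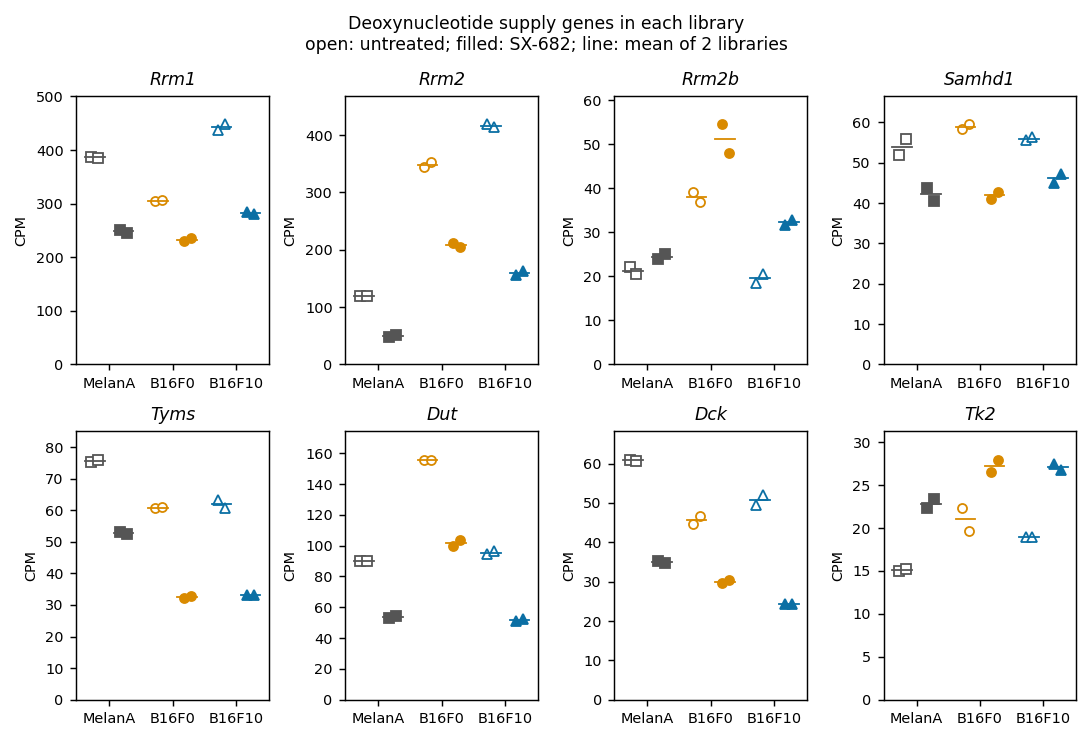
CPM of 8 deoxynucleotide genes in each of the 12 libraries, open symbols untreated, filled symbols SX-682, horizontal lines the mean of 2 libraries, with the vertical axis from 0. Filled symbols lie below the open ones in every line for Rrm1, Rrm2, Samhd1, Tyms, Dut and Dck, and above them for Rrm2b and Tk2.

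Among the genes of the purine steps from PRPP to IMP, that of the committed step fell most in each line. Those of the later steps moved less or in different directions. Ppat, whose enzyme makes phosphoribosylamine from PRPP, was at 42.03 and 41.1 CPM in untreated MelanA and at 31.2 and 33.1 with SX-682. In B16F0 Ppat went from 65.7 and 67.9 to 40.3 and 39.3 CPM, and in B16F10 from 75.7 and 74.4 to 37.9 and 33.8. The log2 changes were -0.37 ± 0.047, -0.75 ± 0.047 and -1.07 ± 0.047 (adjusted p = 1e-07, 3.7e-14 and 7.7e-18) and differed among the lines (F-test, adjusted p = 3.6e-09). Paics, the neighbour of Ppat on the opposite strand, changed by 0.09, -0.16 and -0.23, with a rise in MelanA (adjusted p = 0.0023) and falls in both B16 lines (adjusted p = 4.1e-06 and 3.2e-09). The annotated exons of Ppat and Paics share 272 bases, 6.15% of Ppat and 8.67% of Paics, and whether the counts used strand is not given in the sources used here.

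Gart, a trifunctional enzyme of ring assembly, was at 69.1 and 66.1 CPM in untreated MelanA and at 65.5 and 62.95 with SX-682, which did not pass the test (log2 change -0.07 ± 0.034). Gart rose in B16F0 from 194 and 191 to 209 and 214 CPM and fell in B16F10 from 157 and 157 to 126 and 134 CPM. Atic, which carries out the last steps to IMP, fell in MelanA from 206 and 211 to 183 and 181 CPM. Atic rose in B16F0 from 208 and 205 to 219 and 225 CPM and fell in B16F10 from 227 and 232 to 172 and 170.2 CPM. The B16F10 change was below the B16F0 change by 0.41 for Gart (adjusted p = 1.7e-08) and by 0.53 for Atic (adjusted p = 3.7e-12). Pfas, the amidotransferase that follows Gart, fell in all 3 lines, with log2 changes of -0.18, -0.21 and -0.40. Adsl fell in B16F0 (-0.13 ± 0.034), with values of -0.08 in MelanA and -0.08 in B16F10 that did not pass the test, and its change was not shown to differ among the lines (F-test, adjusted p = 0.61). The Adsl call in B16F0 was lost without B16F0 control replicate 1 (-0.09). In B16F10 Adsl was called lower with RLE scaling (-0.09), without the expression filter (-0.09), with at least 10 counts in each library (-0.08), in the separate fit (-0.08) and with 1 or another of 5 libraries left out (-0.13 to -0.08).

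On the branches from IMP the genes changed by at most 0.22 on the log2 scale. Impdh2, the main IMP dehydrogenase of dividing cells, rose in MelanA by 0.11 ± 0.028 and was at 0.03 in B16F0 and 0.04 in B16F10. Impdh1 fell in B16F10 (-0.21 ± 0.034) and was at -0.03 in MelanA and -0.02 in B16F0. Gmps, GMP synthetase, fell by 0.09 in B16F0 and 0.15 in B16F10. The B16F0 call was lost with RLE scaling (-0.07) and without control replicate 2 (-0.06) or SX-682 replicate 2 (-0.07). Adss, on the branch to AMP, rose by 0.22 in MelanA and 0.19 in B16F10 and was at 0.06 in B16F0. The summed level of these 4 genes was 488 CPM untreated and 512 treated in MelanA, 438 and 436 in B16F0, and 468 and 464 in B16F10. Upstream, Prps2 fell in MelanA (-0.41 ± 0.041) and B16F10 (-0.30 ± 0.042) and was at -0.07 in B16F0. Prps1 passed the test in B16F10 alone, with -0.11 ± 0.044 (adjusted p = 0.045), a call lost without B16F10 control replicate 2 (-0.05) or without either SX-682 replicate (-0.12 and -0.10), and with the replicate block (-0.11). In MelanA Prps1 had 0.10 (adjusted p = 0.06), and there it was called higher, in the opposite direction, with DESeq2, RLE scaling, at least 10 counts in each library and the separate fit (0.11 in each) and with 1 or another of 8 libraries left out (0.11 to 0.14).

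In pyrimidine synthesis the gene of the first steps, Cad, rose in B16F0 and fell in B16F10, while the gene of the last steps, Umps, fell in every line. Cad, at chr5:31054780-31078479 (+ strand, GRCm38), was at 79.7 and 82.3 CPM in untreated MelanA and at 79.2 and 78.2 with SX-682. In B16F0 Cad rose from 202 and 204 to 259 and 257 CPM. In B16F10 it fell from 165 and 157 to 128 and 124 CPM. Untreated and treated libraries were apart in both B16 lines and in opposite order, with log2 changes of 0.35 ± 0.028 (adjusted p = 1.4e-11) and -0.36 ± 0.030 (adjusted p = 1.7e-11), while MelanA had -0.04 ± 0.031 (adjusted p = 0.3). The difference between the B16 lines, -0.70 ± 0.041, was the largest of any of the 33 genes in that comparison (adjusted p = 7.5e-14).

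Umps, which completes UMP, fell in every line. It went from 71.9 and 76.5 to 53.03 and 55.7 CPM in MelanA, in B16F0 from 82.8 and 80.9 to 52.3 and 52.8, and in B16F10 from 91.9 and 94.999 to 46.9 and 50.3. The log2 changes were -0.45 ± 0.040, -0.64 ± 0.041 and -0.94 ± 0.041 (adjusted p = 7.9e-11, 6.8e-14 and 6.1e-18). Dhodh, the mitochondrial step between Cad and Umps, fell by 0.20 in MelanA and 0.45 in B16F10, with -0.14 in B16F0 not passing the test. The MelanA call of Dhodh was lost without control replicate 1 (-0.15), SX-682 replicate 1 (-0.20) or SX-682 replicate 2 (-0.17). It was also lost without the expression filter (-0.19). Of the CTP synthases, Ctps fell in MelanA (-0.38 ± 0.035, adjusted p = 1.2e-10), and the mean change of the B16 lines lay above that of MelanA by 0.40 (adjusted p = 9e-09). Ctps was called higher in B16F0 with DESeq2, RLE scaling or at least 10 counts in each library (0.09 in each) and without B16F0 control replicate 1 (0.12), beside 0.08 that did not pass the test. Ctps2 rose in B16F10 (0.27 ± 0.053), with a change above that of B16F0 by 0.30 (adjusted p = 0.0036). In MelanA Ctps2 had 0.11 (adjusted p = 0.057), which passed the test with DESeq2, RLE scaling, at least 10 counts in each library, the separate fit and 1 or another of 7 libraries left out (0.12 in each).

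Transcripts of the base salvage genes changed little. Hprt, which returns hypoxanthine and guanine to nucleotides, fell, with log2 changes of -0.13, -0.09 and -0.22, and its B16F0 call was lost without control replicate 2 (-0.07) or SX-682 replicate 2 (-0.08). Aprt, which salvages adenine, rose in MelanA by 0.13 ± 0.040 and fell in B16F10 by 0.14, with 0.05 in B16F0. The MelanA rise of Aprt was lost without control replicate 2 (0.11) or SX-682 replicate 2 (0.11).

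The folate enzymes of the cytosol that feed purine and thymidylate synthesis behaved differently from each other. Shmt1, the cytosolic serine hydroxymethyltransferase, was at 40.3 and 40.9 CPM in untreated MelanA and at 42.7 and 41.7 with SX-682. In B16F0 Shmt1 fell from 26.7 and 24.2 to 16.7 and 16.7 CPM, and in B16F10 from 29.6 and 28.6 to 15.996 and 15.2. The log2 changes were 0.06 ± 0.050 (adjusted p = 0.39), -0.61 ± 0.059 (adjusted p = 5e-10) and -0.90 ± 0.059 (adjusted p = 7.5e-14), and the mean of the B16 lines lay below MelanA by 0.81 (adjusted p = 2.5e-11). The range over the lines, 0.95, was the widest of the 33 genes. Shmt1 shares 184 exon bases, 4.74% of its own, with Smcr8 on the other strand, which had 77112 counts in all libraries beside 24378 for Shmt1. Mthfd1, the trifunctional enzyme that supplies formyl groups for the purine ring, was at -0.02 in MelanA, rose by 0.09 in B16F0 and fell by 0.21 in B16F10. Its rise in B16F0 was lost without any 1 of the 4 B16F0 libraries (log2 changes 0.08 to 0.11) and without the expression filter (0.09). The test between the B16 lines gave -0.31 ± 0.052 (adjusted p = 2.7e-05).

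**Figure D3:**
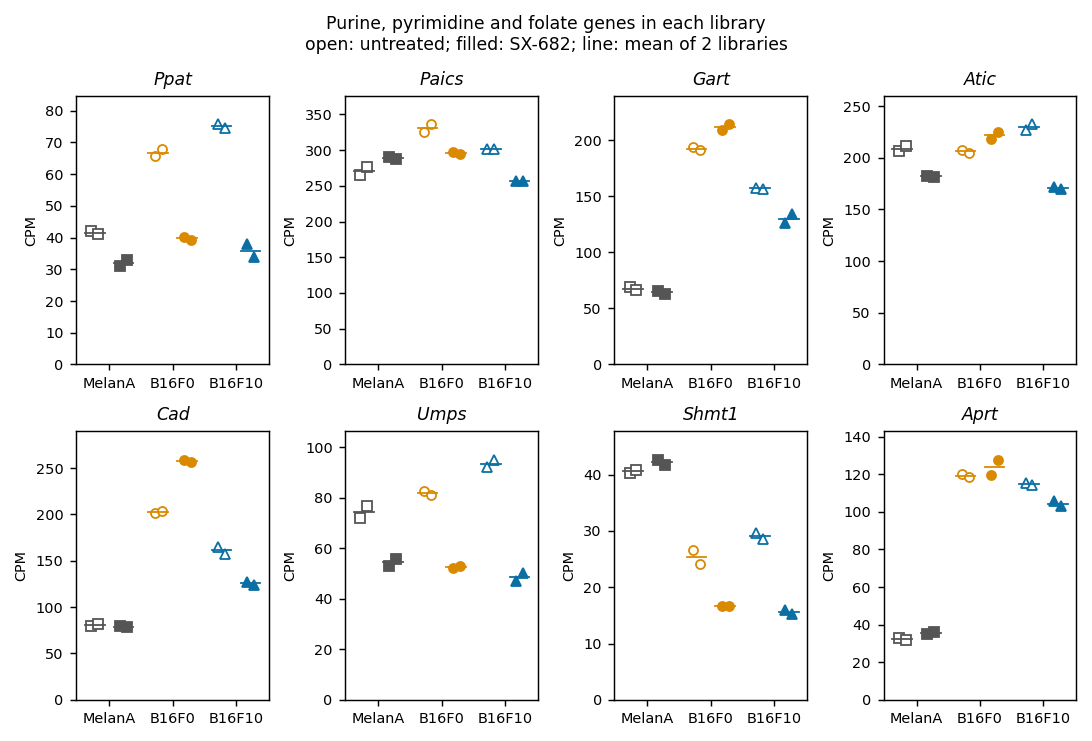
CPM of 8 genes of purine, pyrimidine and folate metabolism in each of the 12 libraries, open symbols untreated, filled symbols SX-682, horizontal lines the mean of 2 libraries, with the vertical axis from 0. Ppat and Umps lie lower with SX-682 in every line, Shmt1 lies lower in the B16 lines alone, and Cad lies higher in treated B16F0 and lower in treated B16F10.

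Of the nucleoside diphosphate kinases, which even out the triphosphates, Nme1 fell, with log2 changes of -0.28, -0.39 and -0.59 (adjusted p = 2e-06, 4.9e-09 and 1.7e-12). Nme2 was at 1.45 to 2.78 CPM over the 12 libraries and passed no SX-682 test. Both values are uncertain, because the readthrough gene Gm20390 covers 12.5% of the exon bases of Nme1 and 48.9% of those of Nme2 on the same strand, and Gm20390 itself had 3 counts in all libraries together.

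The change with SX-682 differed among the 3 lines for 26 of the 33 genes, where 47.4% of all genes did. The change in B16F10 lay below that in B16F0 for 19 genes and above it for 4 (14.9% and 15.3% of all genes). The 4 were Adss, Ctps2, Rrm2b and Samhd1. The count of 4 became 2 without B16F0 control replicate 2 or B16F10 control replicate 1, and of the 4 only the call of Ctps2 held with each library left out in turn. Adss lost its call without B16F0 control replicate 2 (0.13), B16F10 control replicate 1 (0.11) or B16F10 SX-682 replicate 1 (0.12). Rrm2b lost it without B16F0 control replicate 1 (0.24), B16F0 SX-682 replicate 2 (0.20) or B16F10 control replicate 1 (0.21), and Samhd1 without B16F0 control replicate 2 (0.20), B16F0 SX-682 replicate 1 (0.17) or B16F10 SX-682 replicate 2 (0.18). The mean change of the B16 lines lay below that of MelanA for 9 genes and above it for 5 (17.1% and 18.7% of all genes), with Shmt1 (-0.81) and Ppat (-0.54) lowest and Ctps (0.40) and Rrm2b (0.38) highest.

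Without treatment, the B16 lines held more transcript than MelanA for entry genes such as Cad and for the 2 genes of purine base salvage. Of the 3 deoxynucleoside salvage kinases, 1 was higher and 1 lower in B16F0, and 1 higher and 2 lower in B16F10. In B16F0, 19 of the 33 genes were higher and 9 lower than in MelanA, where 35.3% and 40.6% of all genes were. In B16F10, 20 were higher and 7 lower, where 33.4% and 40.8% of all genes were, and the count of lower genes was 11 with RLE scaling. The comparisons share the untreated MelanA libraries. Their medians over the 33 genes were 0.19 and 0.16, beside medians over all genes of -0.06 and -0.10 (-0.09 and -0.13 with RLE scaling). With a difference of at least 0.5, 13 genes were higher and 3 lower in B16F0 (23.2% and 29.8% of all genes), and 8 higher and 1 lower in B16F10 (20.2% and 30.1%). Between the B16 lines 13 genes were higher and 14 lower in B16F10 (30.8% and 31.2% of all genes), or 2 and 3 with a difference of at least 0.5 (15.2% and 18.7%).

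Aprt had the largest untreated difference, with 32.8 and 32.02 CPM in MelanA, 119.9 and 118 in B16F0 and 116 and 114 in B16F10. That is 1.88 ± 0.036 and 1.83 ± 0.037 on the log2 scale, and the B16 lines were not shown to differ from each other (adjusted p = 0.17). Rrm2 differed by 1.54 ± 0.029 for B16F0 and 1.80 ± 0.029 for B16F10 (adjusted p = 3.7e-28 and 9.4e-30), and treated B16F10 stayed above untreated MelanA. Gart was higher by 1.51 ± 0.032 and 1.22 ± 0.033, and Cad by 1.33 ± 0.030 and 0.99 ± 0.030, both more so in B16F0 than in B16F10 (adjusted p = 1.9e-09 for Gart and 2.1e-11 for Cad). Lower in both B16 lines were Impdh1 (-0.61 and -0.32), Ctps2 (-0.80 and -0.31), Shmt1 (-0.67 and -0.48), Tyms (-0.31 and -0.29) and Dck (-0.41 and -0.26). The alternative subunit Rrm2b was higher in B16F0 (0.84 ± 0.060) and at -0.12 ± 0.065 in B16F10, where the call turned to lower with RLE scaling. Between the B16 lines, B16F10 was lower than B16F0 for Rrm2b (-0.96), Pfas (-0.75) and Dut (-0.71) and higher for Prps2 (0.64) and Rrm1 (0.53).

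Levels of the melanocytic markers and of markers of other cell types differed between the lines. The 8 melanocytic markers summed to 1348 to 1377 CPM in MelanA and to 15070 to 24695 CPM in the B16 groups. In MelanA the pigment genes Pmel, Mc1r and Tyr were at 7.53 to 8.70, 2.93 to 3.57 and 0.25 to 0.89 CPM. Dct, Tyrp1 and Mlana were at 268 to 358, 105 to 143 and 99.7 to 119 CPM there. The 6 fibroblast markers summed to 161 to 184 CPM in MelanA, to 27.0 to 33.8 in B16F0 and to 9.76 to 10.9 in B16F10, mostly as Pdgfrb and Col1a1 in MelanA, while Col1a2 was the most abundant of them in untreated B16F10 (4.498 and 5.79 CPM). Of 5 leukocyte and endothelial markers 4 were tested, and in MelanA 1 of them rose with SX-682 and 3 did not pass the test. In B16F0 2 rose and in B16F10 1 rose, and 0 fell in any line. Among all genes 23.4%, 25.1% and 25.5% rose in MelanA, B16F0 and B16F10. The sum of the 4 was 17.3 and 17.5 CPM untreated and 46.3 and 47.2 treated in MelanA, 10.2 to 16.9 in B16F0 and 24.1 to 26.6 in B16F10. The marker that rose in MelanA was Cd68, a macrophage marker named after its values were seen. It went from 15.9 and 16.1 to 43.9 and 45.3 CPM. The 3 that did not pass the test in MelanA were low in its untreated and treated libraries. The leukocyte marker Ptprc was at 0.055 to 0.25 CPM, Pecam1 at 0.96 to 1.68 and Cdh5 at 0.13 to 0.46. Cd68 also rose in B16F0 (log2 change 0.42) and was at -0.09 in B16F10, which did not pass the test. The 5 keratinocyte markers summed to at most 5.93 CPM in any library, with all of them at 0 in untreated B16F0. Their part in the differences was not tested.

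**Figure D4:**
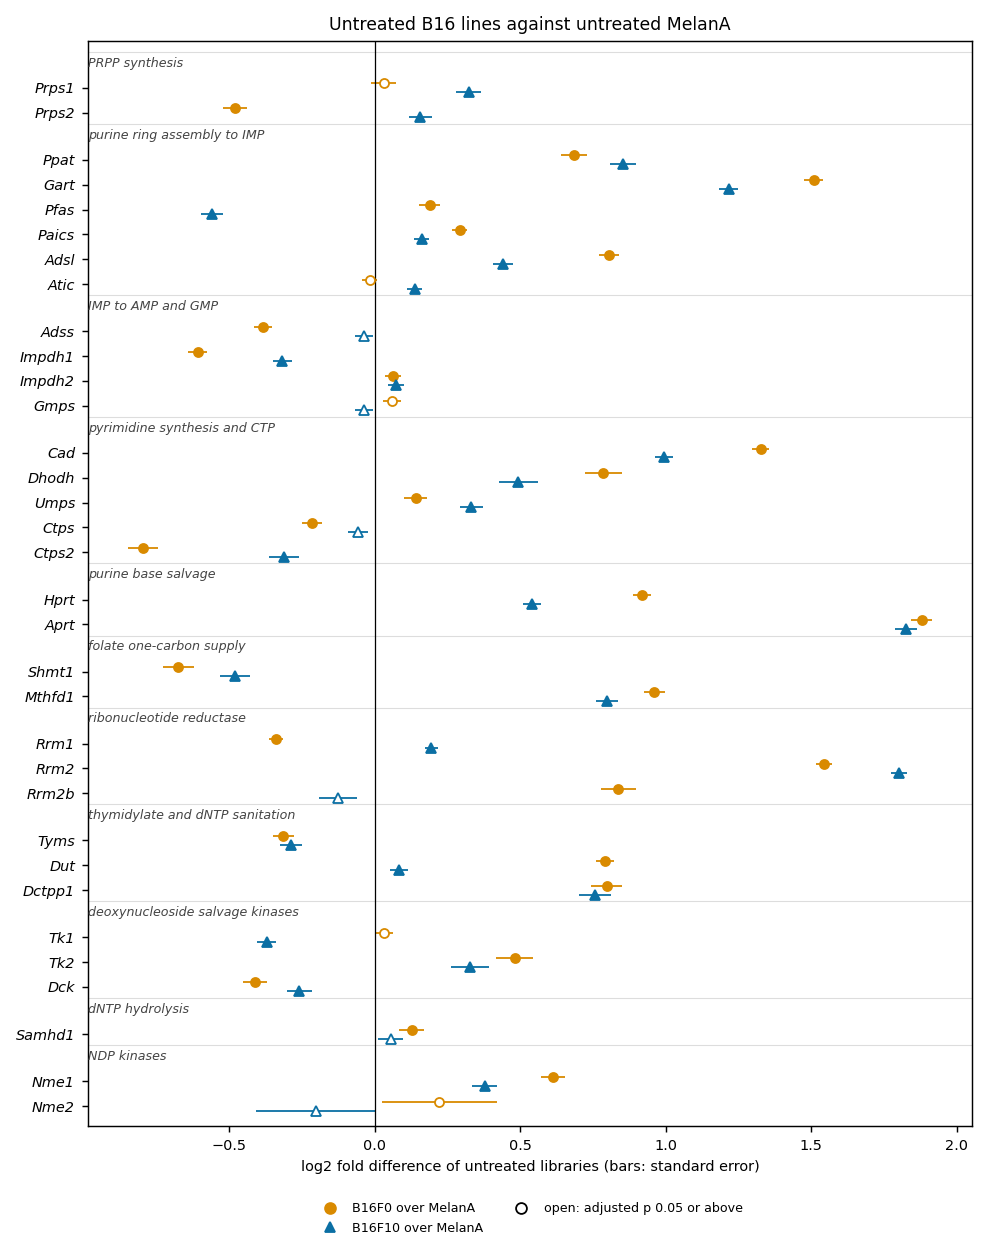
Log2 fold difference of the untreated B16F0 (circles) and B16F10 (triangles) libraries over untreated MelanA for the 33 genes, grouped by role, with bars for the standard error and open symbols where the adjusted p was 0.05 or above. Aprt, Rrm2, Gart and Cad lie farthest to the right in both comparisons.

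Genes that work beside the 33 give their setting. Of 16 S phase and proliferation genes, 15 fell and 0 rose with SX-682 in each line, where 24.7% to 25.3% of all genes fell, with medians of -0.54 in MelanA, -0.45 in B16F0 and -0.60 in B16F10. The cyclin gene Ccne2 fell, with log2 changes of -1.72, -1.96 and -2.26, and the origin-licensing gene Cdc6 fell with changes of -1.02, -0.90 and -1.86. The gene that did not fall was E2f1 in MelanA (-0.02) and Mki67 in B16F0 and B16F10 (0.00 and 0.00), while Mki67 fell by 0.75 in MelanA; E2f1 and Mki67 were named after their values were seen. The part of these genes in the falls of Rrm2, Tyms, Dut and Dck was not tested.

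Of 14 folate cycle genes outside the 33, 9 rose and 4 fell in MelanA, 7 and 2 in B16F0, and 6 and 2 in B16F10, where 23.4%, 25.1% and 25.5% of all genes rose and 24.7%, 25% and 25.3% fell. Mthfd2, the mitochondrial methylene-tetrahydrofolate dehydrogenase, rose by 0.63, 1.16 and 1.85 (adjusted p = 8.9e-19, 2.9e-25 and 4.6e-30), and Aldh1l2, also mitochondrial, by 0.80, 1.44 and 1.23. Mitochondrial Mthfd2 and cytosolic Shmt1 thus moved in opposite directions in B16F0 and B16F10.

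Of 17 nucleoside and nucleotide kinases outside the 33, 9 fell and 3 rose in MelanA, 11 and 4 in B16F0, and 12 and 4 in B16F10, beside the same shares of all genes. Dtymk, the thymidylate kinase that acts after Tyms and Tk1, fell, with log2 changes of -0.67, -0.36 and -0.53, and Cmpk2 fell with changes of -0.33, -0.98 and -0.69. Uckl1, of the uridine-cytidine kinase family, rose by 0.44, 0.22 and 0.84. Dguok, the mitochondrial deoxyguanosine kinase, named after its values were seen, rose by 0.41, 0.39 and 0.39 (adjusted p = 2.8e-07, 1.9e-06 and 2.2e-06). Of the partners of PRPP synthetase, Prpsap1 fell, with log2 changes of -0.14, -0.23 and -0.23, and Prpsap2 changed by 0.20, -0.15 and 0.28.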

How the data were processed

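RNA-seq of cell cultures was used, with 12 libraries in 6 groups of 2 taken from the sample labels. The authors deposited the read count of each of 34513 genes in each library, as counts without normalization, on mm10 coordinates. The submitters' processing notes name cutadapt, STAR and DESeq2. The counting program, its versions and its use of strand are not given in the sources used here.

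From these counts, edgeR 4.0.16 in R 4.3.3 fitted all 12 libraries in 1 quasi-likelihood model with TMM scaling, on the 18338 genes that edgeR's expression filter kept, and p-values were adjusted by Benjamini-Hochberg at 0.05. The residual degrees of freedom were 6, the prior degrees of freedom 21.9 and the biological coefficient of variation 2.78%. Contrasts were SX-682 against control in each line, untreated lines against each other, and differences of the SX-682 changes, beside an F-test over the lines. With 2 libraries a group, an exact permutation test of 1 gene could not go below 0.333, so none is given. Standard errors are the log2 change divided by the root of its F. Replicates differed by more than sampling noise (chi-square per gene 2.87 to 5.25) and were counted as separate samples. The model was tested on simulated data, where it called 82, 72 and 75 of 100 genes changed by 0.5 on the log2 scale in MelanA, B16F0 and B16F10, in the right direction among 18091 genes.

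Positions and exon overlaps come from GENCODE M21 (GRCm38), in which all 33 genes were matched with the same coordinates, and promoter sequences from RefSeq (GRCm38.p6). Library totals set the counting error of each count, while the standard errors and p-values also take in the spread between libraries.

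The 33 genes and the lists were chosen with earlier results of these data known. Values per library are given for genes called in 1 direction in all lines with a change of at least 0.5, in opposite directions with a range of at least 0.5, or at least 1 apart between untreated lines. Of other lists, up to 3 genes called in all lines with the largest mean change are named. The values of 1 gene that this rule names are not reported here. Values per library of Rrm1, Rrm2b, Tk2, Ppat, Umps and Shmt1 were added after values were seen. Alternatives were DESeq2 1.42.0, RLE scaling, a fit without the filter, a minimum of 10 counts in each library, separate fits of the groups compared, the replicate number as a block, each library left out, an adjusted p under 0.01, and a log2 change of at least 0.5.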

Additional observations from a re-analysis of the deposited data

Results flagged for a closer look

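For 26 of the 33 genes the F-test found that the SX-682 change differed among MelanA, B16F0 and B16F10 (adjusted p under 0.05, 47.4% of all genes tested). The range of each gene's log2 change over the lines is given here. Widest were Shmt1 with 0.95, Ppat with 0.70, Cad with 0.70, Rrm2 with 0.65, Atic with 0.53 and Rrm2b with 0.52. Umps had a range of 0.49, Ctps of 0.46, Dck of 0.45, Gart of 0.41, Tyms of 0.38, Prps2 of 0.35 and Paics of 0.33. The range was 0.32 for Dhodh, 0.31 for Mthfd1, 0.30 for Ctps2, 0.30 for Nme1, 0.26 for Aprt, 0.26 for Dut and 0.25 for Rrm1. It was 0.22 for Pfas, 0.21 for Prps1, 0.21 for Tk1, 0.21 for Samhd1, 0.20 for Impdh1 and 0.16 for Adss. Among these, Gart, Paics, Atic, Cad, Aprt and Mthfd1 passed the test in opposite directions in different lines.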

How the results depend on the processing

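Of 235 changes and differences of the 33 genes (of differences between changes, those that passed the test), 186 kept their direction and their side of the adjusted p of 0.05 in each of the other fits made of them (with each library left out, the replicate block, another scaling, tool or filter and, for all but the differences between changes, separate fits of the groups compared). The falls of Rrm2, Rrm1, Tyms, Dut, Dck, Tk1, Ppat, Umps and Nme1 in each line were among them, though the stricter limits that follow remove some of these. With a log2 change of at least 0.5 the counts fell with SX-682 to 1 higher and 6 lower in MelanA, 0 and 7 in B16F0, 2 and 10 in B16F10, and 0 and 4 in all 3 lines. Among the untreated lines they fell to 3 lower in B16F0 and 8 higher and 1 lower in B16F10 against MelanA, and to 2 higher and 3 lower in B16F10 against B16F0. The count lower in B16F10 than in MelanA was 11 with DESeq2, RLE scaling or at least 10 counts in every library. With an adjusted p under 0.01, 1 gene had a change in B16F10 above that in B16F0. The cause of these shifts was not tested, other than the stricter limits themselves.

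Leaving out 1 library at a time gave 1 to 2 genes higher and 12 to 13 lower in all 3 lines, 1 being left without MelanA control replicate 2 or SX-682 replicate 2. It gave 2 to 4 genes with a B16F10 change above that of B16F0 and 16 to 20 below it, 5 above and 8 to 12 below for the B16 mean against MelanA, and 24 to 29 whose change differed among the lines. With SX-682 the counts higher and lower were 4 to 8 and 15 to 17 in MelanA, 5 to 6 and 15 to 17 in B16F0, and 4 and 24 to 26 in B16F10. For the untreated lines they were 16 to 19 and 9 in B16F0 and 18 to 21 and 7 to 8 in B16F10 against MelanA, and 12 to 13 and 12 to 14 in B16F10 against B16F0. The lone library of an arm is then assumed to vary like the others.

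Sign changes met only values that had not passed the test. With 1 library left out, the SX-682 change ranged from -0.077 to 0.057 for Mthfd1 and from -0.082 to 0.43 for Nme2 in MelanA, and from -0.039 to 0.0024 for Impdh1 and from -0.079 to 0.031 for Ctps2 in B16F0. For untreated B16F0 against MelanA the range was -0.0096 to 0.073 for Prps1, -0.018 to 0.088 for Tk1 and -0.038 to 0.0047 for Atic. There Prps1 was -0.0030 with DESeq2, -0.0027 with RLE scaling and -0.011 with at least 10 counts in each library, and Tk1 was -0.0005, -0.0002 and -0.0086 under the same settings. With at least 10 counts in each library, Samhd1 in B16F10 against MelanA was -0.011 and Impdh2 in B16F10 against B16F0 was -0.014.

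Within a line, control and treated libraries carry the same replicate numbers in the labels. Their deviations from the group means correlated at -0.01 in MelanA, 0.05 in B16F0 and -0.01 in B16F10 over 9515 genes, so the numbers were not taken as pairs. With the replicate block the number lower in B16F10 with SX-682 was 24 and the number lower in untreated B16F10 than in B16F0 was 13, the losses being Prps1 (-0.11) and Tk2 (-0.15).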

Other observations

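Of 20 genes of nucleotide breakdown and dephosphorylation 18 were tested, of which 5 fell and 3 rose with SX-682 in MelanA, 8 and 0 in B16F0, and 12 and 1 in B16F10, where 24.7%, 25% and 25.3% of all genes fell and 23.4%, 25.1% and 25.5% rose, with medians of -0.03, -0.23 and -0.28. Itpa, which removes ITP and dITP from the nucleotide pool, fell, with log2 changes of -1.06, -0.97 and -1.49 (adjusted p = 2.2e-18, 2.8e-18 and 4.9e-22). Nudt1, which removes oxidised purine nucleotides, fell, with log2 changes of -0.47, -0.38 and -0.38. Ampd3, an AMP deaminase, rose by 0.50 in MelanA and fell by 0.20 in B16F0 and 0.16 in B16F10.

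Of 8 nucleoside transporters 6 were tested, of which 2 rose and 1 fell in MelanA, 1 and 2 in B16F0, and 1 and 0 in B16F10, beside the same shares of all genes.

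All 8 melanocytic markers fell in B16F0 and in B16F10, where 25% and 25.3% of all genes fell. In MelanA 4 fell and 2 rose, beside 24.7% and 23.4% of all genes. The 2 that rose there, named after their values were seen, were Tyrp1 and Sox10. Tyrp1 went from 105 and 108 to 143 and 143 CPM, and Sox10 from 655 and 685 to 744 and 753. Mitf, a regulator of the pigment lineage, fell, with log2 changes of -0.36, -2.11 and -1.14. Tyr had changes of -1.55, -0.83 and -1.92, that in MelanA at a level of only 0.25 to 0.89 CPM. Mlana had changes of -0.20, -0.46 and -1.07. Among the 6 fibroblast markers, 3 fell and 1 rose in MelanA, and 1 fell and 2 rose in B16F0 and in B16F10. Among all genes 24.7% to 25.3% fell and 23.4% to 25.5% rose. The marker that rose in MelanA was Pdgfrb, with changes of 0.35, 0.50 and 0.64 in MelanA, B16F0 and B16F10.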
